A study of Rattus norvegicus with 24 samples.

Results

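The C/EBP transcription factors C/EBP alpha, beta, delta and gamma, encoded by Cebpa, Cebpb, Cebpd and Cebpg, were examined in the retina of streptozotocin (STZ)-diabetic and control rats. The 4 genes were chosen by name because the 3 month difference of Cebpd was among the largest on the arrays, so that difference and every other 3 month difference of a member are given as descriptions with no test. Of the 4013 genes that could be named on the array, 2 were members: Cebpd (RefSeq gene 25695, chr11:98268856-98269994 in GRCr8) and Cebpa (gene 24252, chr1:96896584-96899256), each with 1 probe. No probe carried an accession of Cebpb or Cebpg, and these genes were not analysed here.

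Male Sprague Dawley rats received an intraperitoneal injection of STZ in citrate vehicle, or vehicle alone, and retinas were taken 1 or 3 months later. STZ destroys the insulin-producing beta cells of the pancreas, so that the model is one of insulin deficiency. Only injected rats that became hyperglycemic entered the STZ groups, and no insulin was given to any group. Poly(A) RNA of the whole retina was amplified and hybridized to CodeLink rat whole genome arrays, which read spotted oligonucleotides in 1 color, with 6 arrays in each of the groups 1M Control, 1M STZ, 3M Control and 3M STZ. The series' design calls the arrays of a group biological replicates, and the rats' ages are not given in the sources used here. The study's list of animals has fewer 1 month control rats than there are 1M Control arrays, so that n = 6 may exceed the number of rats in that group, and the tests at 1 month measure the spread between arrays.

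C/EBP proteins bind DNA as dimers through a basic region and a leucine zipper (bZIP), and pair with each other and with other bZIP proteins. C/EBP alpha is best known for the differentiation of fat cells, liver cells and myeloid cells. C/EBP delta is low in many resting tissues and is induced by interleukin-6 through Stat3, and by interleukin-1, endotoxin and glucocorticoids; with C/EBP beta it drives acute phase genes in the liver. C/EBP gamma lacks a strong activation domain and is known as a dimer partner of its relatives.

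Each intensity was divided by the median of the rat probes on its array, so that 1 is the brightness of the middle rat probe; differences are in log2 of this scaled intensity. The median intensity of the rat probes ranged from 124 to 360 across the 24 arrays. Probes for bacterial genes, which have no target in rat RNA, measured the background: their 95th percentile was 0.632 to 1.18 on the 1 month arrays and 1.16 to 1.72 on the 3 month arrays. The 1 and 3 month arrays were therefore compared as values only. The tissue label was borne out by rod photoreceptor markers, of which 7 of 15 were named on the array. Their summed scaled intensity was 238 to 645 over the 24 arrays, and none had a group median at or below the bacterial 95th percentile. The array that stood apart was 3M Control array 2, whose correlations with the rest of its group had a median of 0.842, where every other 3 month array had at least 0.916. At 1 month the lowest such median was 0.925, on 1M Control array 5. At 3 months the Cebpd difference, the median probe, the number of calls and the correlations with Cebpd are given with and without 3M Control array 2. The list counts and marker sums are given with it only.

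Cebpd was the member with a signal above background, and its brightest group was 3M STZ. At 1 month the scaled intensity on 1M Control arrays 1 to 6 was 2.76, 1.77, 1.87, 2.33, 0.950 and 1.66. On 1M STZ arrays 1 to 6 it was 4.30, 2.45, 2.09, 3.52, 1.62 and 1.87. The groups overlapped, with 2 of 6 STZ arrays above the highest control array.

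At 3 months the scaled intensity of Cebpd on 3M Control arrays 1 to 6 was 4.31, 1.09, 2.83, 3.99, 3.07 and 3.92. On 3M STZ arrays 1 to 6 it was 9.52, 15.6, 25.3, 7.08, 22.2 and 21.8. All 6 STZ arrays lay above all 6 control arrays, and the dimmest STZ array was still brighter than the brightest control array. All arrays but 3M Control array 2 exceeded the 95th percentile of their own bacterial probes; on that array Cebpd was 1.09 and the percentile 1.64.

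**Figure D1:**
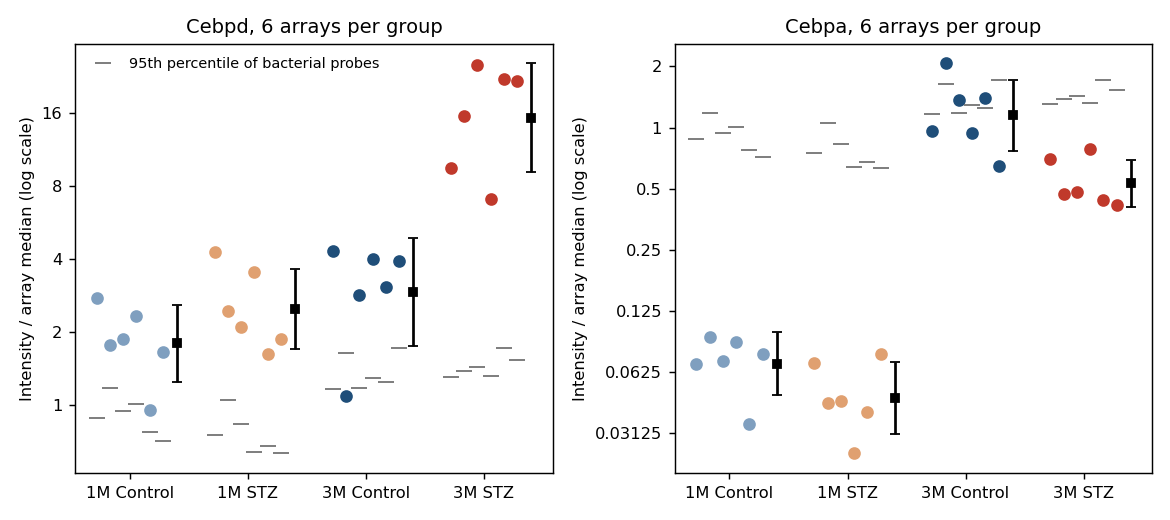
Scaled intensity (intensity divided by the array median, log scale) of Cebpd (left) and Cebpa (right) on each of the 6 arrays of each group, in replicate order. Circles are arrays, black squares with bars the mean ± SD of log2 values, and gray dashes the 95th percentile of the bacterial probes on the same array. Cebpd lay at 7.08 to 25.3 on the 3M STZ arrays and at 1.09 to 4.31 on the 3M Control arrays, and Cebpa exceeded the dash on 3 of the 24 arrays.

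In log2 units the mean of Cebpd was 0.85 ± 0.53 (SD, n = 6) in 1M Control, 1.31 ± 0.55 in 1M STZ, 1.55 ± 0.74 in 3M Control and 3.94 ± 0.75 in 3M STZ. In that order the first 3 groups overlapped with their neighbors: 1M STZ exceeded 1M Control by 0.47, and 3M Control exceeded 1M STZ by 0.24, both less than the SD within those groups. The last step, of 2.38 from 3M Control to 3M STZ, was the one with no overlap. In whole-retina RNA, more cells of a type and more RNA per cell cannot be told apart.

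The 1 month comparison used other rats than the one by which Cebpd was chosen, and was tested. Cebpd was higher in STZ rats by 0.47 (SE 0.33), a 1.38-fold difference that did not pass the test (limma, adjusted p = 1.00 over 22025 probes; unadjusted p = 0.169). The interval of 2 SE either side ran from -0.20 to 1.13, so that a change of up to 2.19-fold was compatible with this fit. The SE rests on the spread of all 24 arrays, and was 0.27 with the time points in separate models. An exact two-sided permutation test of the 12 values gave p = 0.165. Neither test used the array numbers as pairs, although Cebpd was higher on each 1M STZ array than on the 1M Control array of the same number. Without 1M Control array 5 the difference was 0.28 (SE 0.33). Across all probes, 2 of 22025 (0.00908%) passed at 1 month, where passing means a difference of 1.2-fold or more and an adjusted p under 0.05, and on 0.545% the STZ and control arrays did not overlap; 927 probes had an unadjusted p under 0.05. Of the 2 members, 0 were called at 1 month, and Cebpa was too dim to be tested.

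At 3 months Cebpd was higher in STZ rats by 2.38 (SE 0.33), or 5.21-fold. This contrast chose the gene, so no p is given. The 3 month contrast was broad: 54.1% of the tested probes were called, 50.5% as higher in STZ, and the median difference of all tested probes was 0.44. The STZ and control arrays did not overlap on 10.2% of probes. The 11911 calls were 4058 with array brightness as a covariate, 1 with array spread as a covariate and 1921 by the methods' test with adjustment. Without 3M Control array 2 the calls were 8734. Every call of a listed gene below rests on the fit without these changes. Relative to the median probe, Cebpd was higher by 1.94. It had the 15th highest difference of the 22025 probes and the 6th of 2812 named genes.

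**Figure D2:**
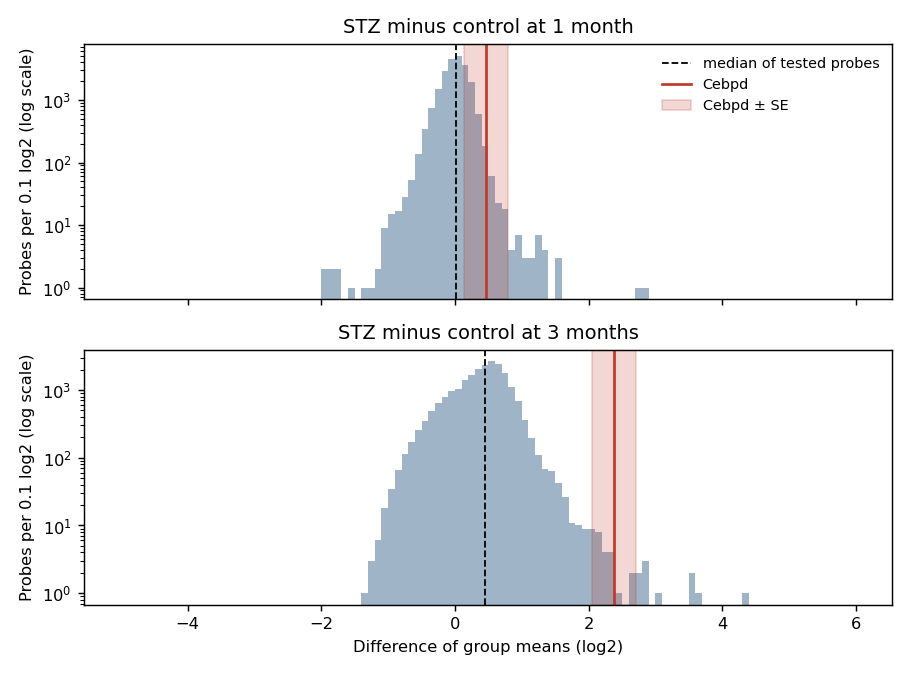
Number of tested probes (log scale) by STZ minus control difference in log2, in steps of 0.1, at 1 month (top) and 3 months (bottom), with the median probe dashed and Cebpd in red with its SE shaded. Cebpd lay at 0.47 at 1 month and at 2.38 in the upper tail at 3 months, and the median probe at 0.01 and 0.44.

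The size of the 3 month difference depended on how the arrays were brought to 1 scale. Quantile normalization, which gives all arrays the same distribution, left 1.93 for Cebpd (3.82-fold) and 0.16 for the median probe, a gap of 1.77. The spread of the arrays (the interquartile range of their log2 values) was 1.61 to 2.14 in 3M Control and 1.96 to 2.29 in 3M STZ. Among the 3M STZ arrays, array 4 had the narrowest spread, 1.96, and the lowest Cebpd, 7.08. On the other 3M STZ arrays the spread was 2.21 to 2.29, and Cebpd ranged from 9.52 to 25.3. With the spread as a covariate the Cebpd difference was 1.28 (SE 0.40) and the median probe 0.03. Without 3M Control array 2 it was 2.10 (SE 0.30), with the median probe at 0.32.

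**Figure D3:**
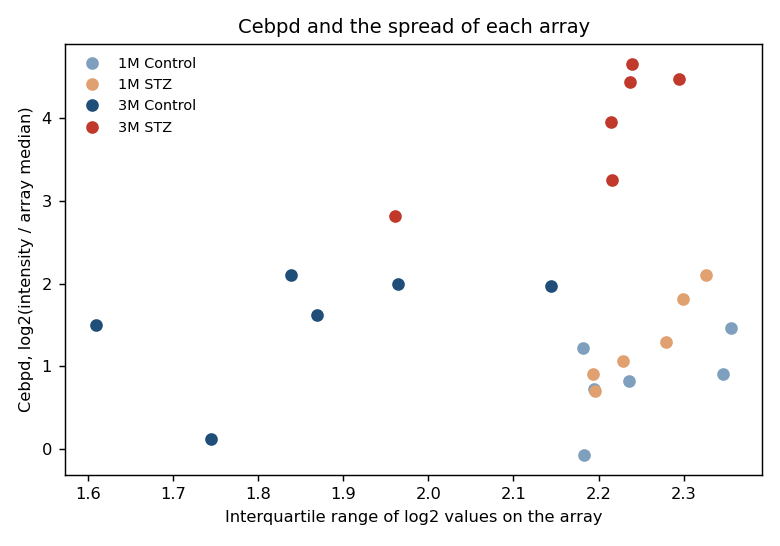
Log2 scaled intensity of Cebpd against the interquartile range of log2 values on the same array, 1 point per array and 6 arrays per group. The spread was 1.96 to 2.29 on the 3M STZ arrays, 1.61 to 2.14 on the 3M Control arrays and 2.18 to 2.36 on the 1 month arrays, and Cebpd was highest on the 3M STZ arrays.

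Cebpa was at or near background. On 1M Control arrays its scaled intensity was 0.0349 to 0.0934 (median 0.0739), and on 1M STZ arrays 0.0249 to 0.0767 (median 0.0448). On 3M Control arrays 1 to 6 it was 0.965, 2.07, 1.37, 0.936, 1.39 and 0.645, and on 3M STZ arrays 0.697, 0.471, 0.479, 0.788, 0.440 and 0.416. It exceeded the bacterial 95th percentile of its array on 0 of 12 arrays at 1 month, on 3 of 6 3M Control arrays (2, 3 and 5) and on 0 of 6 3M STZ arrays. Its median over the 24 arrays was below the limit of 0.554 set for testing.

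The STZ minus control difference of Cebpa was -0.56 (SE 0.30) at 1 month and -1.11 (SE 0.30) at 3 months, where 4 of 6 STZ arrays lay below the lowest control array. The bacterial probes also stood lower in STZ, with a median difference of -0.11 at 1 month and -0.25 at 3 months. At 1 month all 12 values were under 0.1, a level at which the difference has no order. At 3 months the sign was opposite to that of Cebpd, in values mostly within the background. The difference was -0.42 (SE 0.40) with the array spread as a covariate and -1.78 after the dimmest level of each array, its 5th percentile, was subtracted.

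Among C/EBP relatives and bZIP partners, 13 of 20 genes were named and 12 tested. None passed at 1 month (median 0.09, against 0.01 for all tested probes). At 3 months 9 of 12 rose and 0 fell, with a median of 0.77 against 0.44 for all probes. Of the 9 that rose, 7 were above the bacterial 95th percentile on all 6 3M STZ arrays and 1 on 0 of 6. Of all 2812 tested named genes, 56.0% rose at 3 months, and 27.3% after quantile normalization, and the counts of each list are to be read against these shares. Jun, a subunit of the AP-1 factor, had the highest difference, 1.06 (SE 0.21, limma adjusted p = 0.000595), and Creb1, the cAMP-responsive factor, the lowest, -0.18 (SE 0.15, adjusted p = 0.305), at a level below the bacterial 95th percentile on all 3 month arrays. After quantile normalization 5 of 12 rose, and the median was 0.20 against 0.16. Cebpe, the myeloid C/EBP, was below the limit for testing, and on 0 of 24 arrays was it above the bacterial 95th percentile.

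Of the signals known to induce Cebpd, the interleukin-6 family with its Jak and Stat proteins had 10 tested genes of 14 named. At 3 months 5 rose and 1 fell, with a median of 0.42, and 4 rose and 1 fell after quantile normalization; 2 of the 5 that rose were above the bacterial 95th percentile on 0 of 6 3M STZ arrays. Cntf, a cytokine that acts through Stat3 and supports neurons, had the highest difference, 0.90 (SE 0.22, adjusted p = 0.00272 by limma). Of 10 tested genes of interleukin-1, TNF, endotoxin and glucocorticoid signaling, 5 rose and 0 fell, with a median of 0.41, and 3 rose after quantile normalization. Of the 5 that rose, 3 were above the bacterial 95th percentile on all 6 3M STZ arrays and 1 on 0 of 6. Il1a, encoding interleukin-1 alpha, was highest at 0.98 (SE 0.18, limma adjusted p = 0.000392), but stood above the bacterial 95th percentile on 0 of 6 3M Control and 3 of 6 3M STZ arrays. Tlr2, a receptor for bacterial lipoproteins, was lowest at -0.14 (SE 0.17, adjusted p = 0.481) and below that percentile on all 3 month arrays. None of these 20 genes passed at 1 month.

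**Figure D4:**
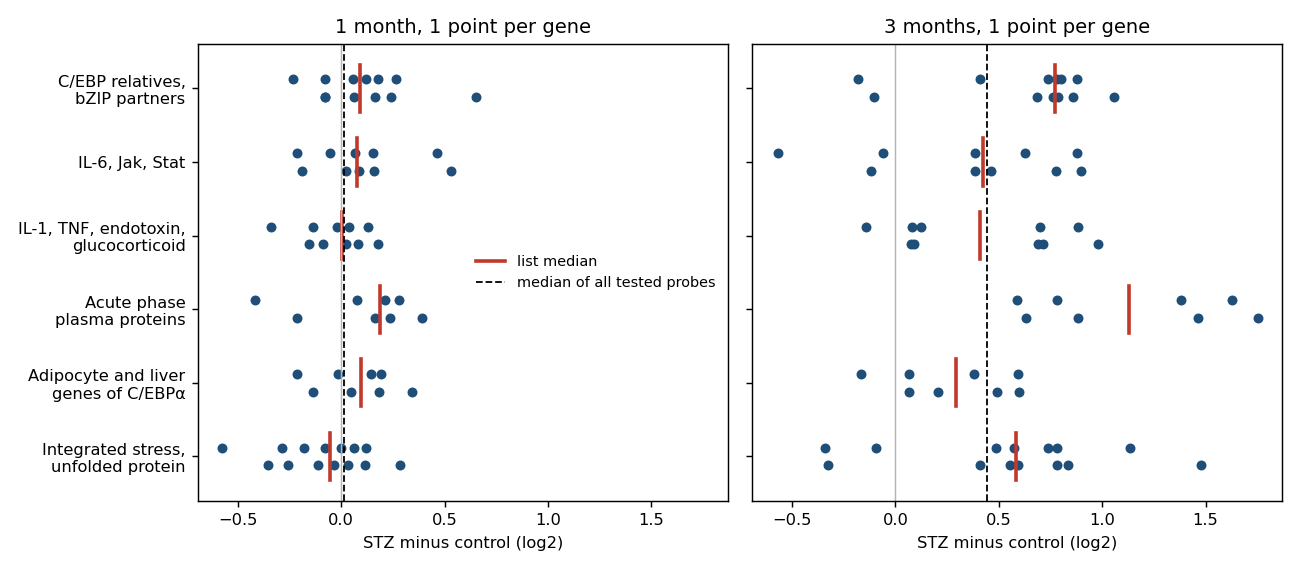
STZ minus control difference (log2) of the tested genes of 6 lists at 1 month (left) and 3 months (right), 1 point per gene, with the list median in red and the median of all tested probes dashed. At 1 month the list medians lay between -0.06 and 0.19, and at 3 months the acute phase list had the highest median, 1.13, against 0.44 for all tested probes.

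Acute phase plasma protein genes are textbook targets of C/EBP beta and delta. Of 8 tested genes 7 rose at 3 months and 0 fell, with a median of 1.13, and after quantile normalization 6 rose with a median of 1.03 against 0.16 for all probes. A2m, a protease inhibitor of rat plasma, had the highest difference, 1.76 (SE 0.23, limma adjusted p = 2.76e-05), and C3, the central complement component, the lowest, 0.59 (SE 0.15, limma adjusted p = 0.00279). C3 and 1 other of the 7 that rose were within the background, above the bacterial 95th percentile on 0 of 6 3M STZ arrays, and the other 5 were above it on all 6. C3 and that other gene were also among the 6 that rose after quantile normalization. At 1 month none of the 8 passed, with a median of 0.19.

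The promoters of these genes (RefSeq, GRCr8, 250 bases before to 50 after the start of the gene) were searched on both strands for the C/EBP letters TTGCNNAA and the Stat letters TTCNNNGAA. The C/EBP letters were found in 10 of the 16 promoters held for the 19 genes of the list, and in 10.5% of all 27457 promoters; the Stat letters were found in 3 of 16 and in 8.68% of all. Of the 8 tested genes 6 had a promoter in the table, and 5 of these held the C/EBP letters and 1 the Stat letters. The list was made of acute phase plasma protein genes, which include genes that C/EBP proteins are known to drive in the liver. A match is a description of the sequence. The 5 stretches with the C/EBP letters are shown because they lie beside genes measured here, each 5′ to 3′ on the strand of its gene, with the matched letters in capitals; besides C3, the genes were named after their values were seen.
C3, chr9:2201425-2201454, minus strand: aggaaaccacgTTGCGAAAtctggggcagc
Orm1, chr5:81788375-81788404, plus strand: gagggaacattTTGTGCAAgacatttccca
Hpx, chr1:169352337-169352366, minus strand: cagctggaaatTTGCTGAAgggggtaggga
Lcn2, chr3:36081953-36081982, minus strand: agcccttccttTTGCTCAAccttgcacagt
Cp, chr2:104368587-104368616, plus strand: attatttactcTTGTGCAAcattaaattgt
The 3 month differences of these genes were 0.59 for C3, 0.78 (SE 0.35, limma adjusted p = 0.0575) for Orm1, 0.88 for Hpx, 1.46 for Lcn2 and 1.63 for Cp. Orm1, which encodes a plasma glycoprotein, did not pass. After quantile normalization C3, Lcn2 and Cp kept their calls, and Hpx, at 0.53, did not. Hpx binds heme, Lcn2 binds iron-carrying siderophores and Cp is a copper-carrying ferroxidase. The promoters of Cebpa, Cebpb and Cebpg held neither set of letters in this window, and the table used here has no entry for Cebpd.

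Of the genes of fat and liver cells that C/EBP alpha regulates, all 16 were named and 8 tested, of which 4 rose and 0 fell at 3 months, with a median of 0.29, below the 0.44 of all probes; 2 of the 4 were above the bacterial 95th percentile on 0 of 6 3M STZ arrays. Fasn, the fatty acid synthase, was highest at 0.60 (SE 0.20, limma adjusted p = 0.0169), and 0.05 without a call after quantile normalization. Ppargc1a, a coactivator of mitochondrial genes, was lowest at -0.16 (SE 0.16, adjusted p = 0.372). After quantile normalization the median of the list, 0.44, stood above the 0.16 of all probes, so that its place relative to the other probes turned with the scaling.

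In the integrated stress and unfolded protein response, which includes Ddit3 and Atf4, both partners of C/EBP proteins and both counted among the relatives too, 10 of 14 tested genes rose and 0 fell at 3 months, with a median of 0.58. Gadd45a, a growth arrest and DNA damage gene, was highest at 1.48 (SE 0.17, limma adjusted p = 1.32e-05), and Asns, the asparagine synthetase, lowest at -0.34 (SE 0.31, adjusted p = 0.342). Quantile normalization left 2 that rose and 1 that fell, Asns at -0.89, with a median of 0.05, below the 0.16 of all probes.

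Markers of reactive glia and of the lens were higher along with Cebpd at 3 months. The reactive glia list had 7 tested genes, which all rose, also after quantile normalization. Its summed scaled intensity was 19.0 to 44.4 in 3M Control and 72.3 to 367 in 3M STZ, without overlap; 2 of its genes, Lcn2 and Serpina3n, are also in the acute phase list. At 1 month its sum was 50.6 to 80.3 in control and 47.2 to 96.6 in STZ rats. Of 8 tested lens genes, some of which the retina also expresses, 7 rose, and 3 after quantile normalization. The sum over 10 named lens genes was 130 to 326 in 3M Control and 408 to 828 in 3M STZ, and at 1 month 183 to 503 in control and 47.0 to 480 in STZ rats. Of 7 tested microglia and leukocyte genes 4 rose, and 3 after quantile normalization, with sums of 10.4 to 14.6 and 14.4 to 19.5 at 3 months; 5 of the 10 named genes had a 3M STZ median at or below the bacterial 95th percentile. Of the 6 tested Mueller glia genes 3 rose, near the share of all named genes, and 1 after quantile normalization. The sums over 7 named Mueller glia genes overlapped at 3 months, 58.0 to 161 and 140 to 198. They did not overlap at 1 month, 165 to 186 in control and 198 to 295 in STZ rats. None of the 6 tested genes passed at 1 month. Glul, the brightest of the 6, differed by 0.72 there, and the median difference of the 6 was 0.03. The part of any of these in the Cebpd difference was not tested.

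The genes most alike Cebpd within the groups depended on the scaling. After the mean of each group was subtracted, the 5 of 2811 named genes whose values over the 24 arrays were most correlated with Cebpd were Strbp (Pearson r = 0.87), Nlrp6 (0.87), Mfn2 (0.86), Prdx3 (0.86) and Cltc (0.86). Strbp encodes an RNA-binding protein, Nlrp6 a cytosolic sensor of the inflammasome family, Mfn2 a mitochondrial fusion protein, Prdx3 a mitochondrial peroxidase and Cltc the clathrin heavy chain. Their 3 month differences were 0.43 to 0.57, near the 0.44 of the median probe. The genes were read on the same arrays, and the median r over all named genes was 0.34 with a 95th percentile of 0.75. In the same way Cebpd had an r of 0.61 with the spread of the array and of 0.03 with its median intensity. Without 3M Control array 2 the 5 values were 0.79 to 0.82, and after quantile normalization 0.65 to 0.83, where none of the 5 stayed among the first 5 genes; Prdx3 was 7th and Strbp 236th. Among the genes of the lists, ceruloplasmin (Cp) was the most alike, at 0.76, and at 0.77 without 3M Control array 2; it was singled out after its values were seen.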

How the data were processed

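The authors scanned the arrays, computed spot intensities with the CodeLink software, left out defective spots, subtracted the background and normalized within each array, and deposited each array's background-subtracted intensity on a linear scale. Here the deposited intensity was divided by the median of the rat probes of its array, raised to 0.01 where lower, and taken as log2. The 22025 rat probes tested had 4 or more values per group and a median over the 24 arrays beyond 0.554, which is the 35th percentile over all probes. The 4 groups were fitted in 1 model with limma 3.58.1 in R 4.3.3, with no block. Calls needed a 1.2-fold difference or more and a p below 0.05 after Benjamini-Hochberg adjustment over all tested probes. The fit was tested on simulated data. Probes were named by RefSeq transcript accession, with 1 probe per gene, the tested probe with the highest mean. The number of arrays, and how far a probe stood above background, limit the precision.

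The members and gene lists were chosen with earlier results of these data known. Named are the members, the genes with the highest and the lowest 3 month difference in each functional list and the 5 genes most alike Cebpd. Single values of 1 gene that this rule names are not reported here, and counts include it. Of the marker lists, those of pigment epithelium, erythrocytes and endothelium had 2 tested genes each, of which 0, 1 and 2 rose at 3 months. Alternatives were quantile normalization, the deposited normalized values, subtraction of the 5th percentile, other filters, array weights, a floor of 0.1, a trend in the variance, separate models, a replicate block, array spread or brightness as a covariate, the methods' test, no fold limit and each array left out.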

Additional observations from a re-analysis of the deposited data

Results flagged for a closer look

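With 6 arrays in each group, 2 values stood apart from the others of their group by Dixon's criterion, which chance meets in about 1 of 20 groups; 8 groups were looked at. Cebpd on 3M Control array 2 was lowest, at a log2 scaled intensity of 0.13, and the gap to the next array was 0.695 of the range of the group. Cebpa on 1M Control array 5 was lowest at -4.84, a level within the background, with a gap of 0.688 of the range.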

How the results depend on the processing

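The count of members called at 1 month was 0 under all 39 alternatives. It rests mostly on Cebpd, as Cebpa was given an adjusted p only with no filter on dim probes. The 1 month difference of Cebpd stayed positive and short of the threshold, at 0.22 to 0.59. Its 3 month difference stayed positive under all 36 alternatives that gave it, at 2.10 to 2.60 with 1 array left out, but was 1.28 with array spread as a covariate. The 3 month difference of Cebpa stayed negative, at -1.27 to -0.94 with 1 array left out, but was -1.78 with the 5th percentile subtracted and -0.42 with array spread as a covariate. Over all probes, the 2 calls at 1 month were 0 to 360 under the alternatives (360 with array weights, 262 by the methods' test unadjusted and 0 by it adjusted, 1 to 5 with 1 array left out), and the 11911 calls at 3 months were 6948 with quantile normalization, 4058 with array brightness and 1 with array spread as a covariate, and 3722 and 1921 by the methods' test unadjusted and adjusted. The cause of these shifts was not tested. Quantile normalization turned the median 3 month difference of the rod photoreceptor markers from 0.30 to -0.36, of the Mueller glia markers from 0.54 to -0.25 and of the pigment epithelium markers from 0.00020 to -0.27. Deviations of same-numbered arrays of a time point had correlations of -0.24 to 0.25, which do not exclude that the numbers pair the samples. For Cebpd at 1 month, the STZ array exceeded the same-numbered control array throughout. With the replicate number as a block Cebpd differed by 2.38 (SE 0.28) at 3 months and 0.47 (SE 0.28) at 1 month. In that fit 11622 probes were called at 3 months and 1 at 1 month. Signal over background limits Cebpa at both times.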
